A study of Arabidopsis thaliana with 6 samples.

Results

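The genes described here encode the enzymes that build chlorophyll from glutamate, its branch to heme, and the enzymes that interconvert and dismantle chlorophyll, in seedlings of Arabidopsis thaliana, ecotype Columbia. They are 35 genes of 33602 in the deposited table, chosen by locus code from pathway knowledge, with earlier results of these data known: 11 of the steps from glutamyl-tRNA to protoporphyrin, 14 of the chlorophyll branch, 2 of the heme branch and 8 of chlorophyll turnover. Seedlings grew for 12 days on agar with a basal salt mixture lacking nitrogen and 0.5% sucrose, to which 5 mM glutamate or 5 mM ammonium nitrate was added as the only nitrogen source. Both groups had days of 16 h and nights of 8 h, a temperature of 22 °C and a cold period of 2 days. Roots and shoots were extracted together, and each nitrogen source had 3 libraries, all of the same unmodified ecotype. The study asked which genes respond to glutamate. Ammonium nitrate carries a pair of nitrogen atoms, so nitrogen atoms were at 5 mM on glutamate and 10 mM on ammonium nitrate, and how much nitrogen was supplied cannot be told apart from its source.

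In plants, tetrapyrrole synthesis starts in the plastid from glutamate joined to its transfer RNA. Glutamyl-tRNA reductase and an aminotransferase turn it into aminolevulinate, the precursor from which the porphyrin ring is assembled. Protoporphyrin then receives either magnesium, on the way to chlorophyll, or iron, on the way to heme. Chlorophyll a is converted to chlorophyll b and back in the chlorophyll cycle, and in senescing leaves magnesium is removed, phytol is cut off and the ring is opened.

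Levels are in RPKM, read numbers normalised for gene length and sequencing depth, scaled between libraries by the authors. The libraries held about 49690000 to 63420000 reads on glutamate and 49520000 to 51410000 reads on ammonium nitrate, as worked out from the deposited values, and 1 read in a gene of 1 kb was worth 0.0152 to 0.0211 RPKM. Means are given ± SD over n = 3 libraries. Log2 fold changes are of RPKM + 1, glutamate over ammonium nitrate, ± SE, with adjusted p-values from limma with Benjamini-Hochberg adjustment over the 20032 genes whose mean reached 1 RPKM; a gene passed at an adjusted p under 0.05. Folds are ratios of mean RPKM. The labels do not tell whether libraries stem from separate cultures, and the p-values rest on sample-to-sample spread that may be only technical.

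On glutamate most genes of chlorophyll synthesis were lower, and the genes of chlorophyll turnover went both ways. Of the 25 synthesis genes, 24 reached the level needed for the test; 19 fell, 3 rose and 2 did not pass. The 8 turnover genes split evenly, with 4 higher and 4 lower, and the pair of ferrochelatase genes went opposite ways. In all, 34 of the 35 genes were tested, of which 24 fell, 8 rose and 2 did not pass. Changes were common throughout the transcriptome: 71.8% of all tested genes passed, 36.8% lower and 35% higher, and the libraries' groups did not overlap for 76.1%. Against that background 94.1% of the chlorophyll genes passed and 70.6% were lower. Their median log2 fold change was -0.64, against -0.02 over all tested genes, and that of the 24 synthesis genes was -0.67.

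Summed over the 25 synthesis genes, the level was 1444, 1272 and 1382 RPKM in the glutamate libraries, against 2053, 2106 and 2068 RPKM in the ammonium nitrate libraries. Every glutamate library was below every ammonium nitrate library. Abundant genes weigh most in these sums. CHLP alone averaged 187 RPKM of a mean sum of 1366 RPKM on glutamate. On ammonium nitrate it averaged 402 RPKM of 2076 RPKM. Glutamate replicate 2 was the lowest of its group for 22 of the 24 tested synthesis genes, or 91.7%, where 35.4% of all tested genes were lowest there. It was also the lowest for 8 of 8 mesophyll marker genes, such as the Rubisco small subunit, but for only 3 of 8 turnover genes and 2 of 10 shoot markers, of which it was the highest for 4. Without it 19 synthesis genes still fell and 3 rose. The spread between libraries of the 34 tested genes had a median coefficient of variation of 7.05% on glutamate and 3.86% on ammonium nitrate, where all tested genes had 5.50% on glutamate and 6.58% on ammonium nitrate.

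**Figure D1:**
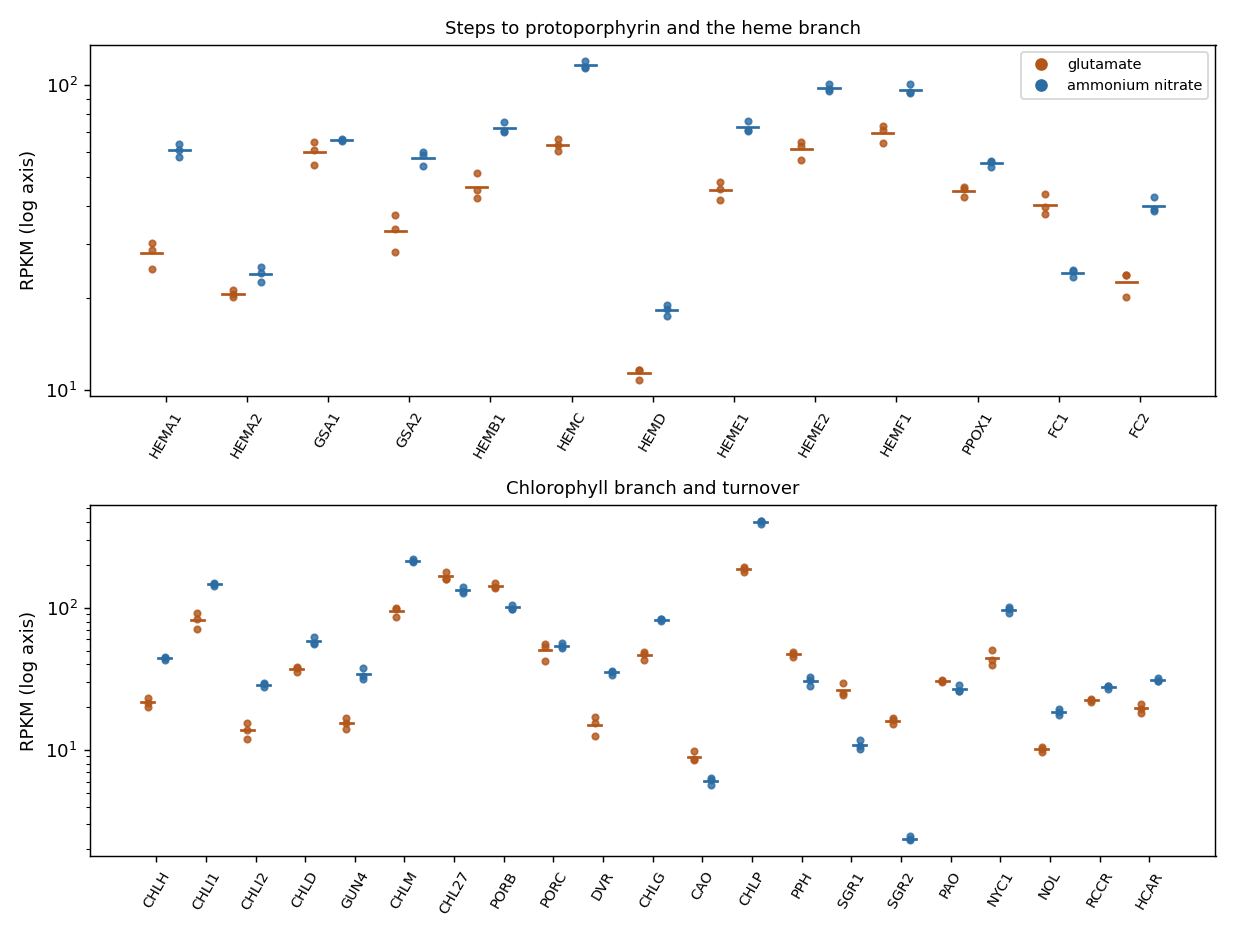
RPKM on a log axis of each tested chlorophyll gene in the 3 glutamate libraries (brown, left of each pair) and the 3 ammonium nitrate libraries (blue, right), with bars at the means. The 2 groups do not overlap for every gene shown but PORC, where 76.1% of all tested genes do not overlap. For GSA1 the nearest points, 65.0 RPKM on glutamate and 65.3 RPKM on ammonium nitrate, almost meet. CHLP is the highest gene in both groups.

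The plot of RPKM by library shows how far the levels spread. CHLP was the most abundant member in both groups and PORA the least. CHL27 was the second on glutamate and the fourth on ammonium nitrate. NYC1 was 16th on glutamate and 8th on ammonium nitrate, while PPH was 11th on glutamate and 24th on ammonium nitrate.

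The entry of the pathway was lower on glutamate. HEMA1 (AT1G58290) encodes the main glutamyl-tRNA reductase of green tissue, the enzyme that commits glutamate to tetrapyrroles. It had 28.7, 24.9 and 30.4 RPKM in the glutamate libraries, against 57.8, 61.3 and 63.9 RPKM in the ammonium nitrate libraries. The groups were far apart, with a mean 2.18-fold lower on glutamate and a log2 fold change of -1.10 ± 0.08 (adjusted p = 5.1e-06). HEMA2 (AT1G09940), the second reductase gene, which is also active in roots, had 20.1, 21.3 and 20.6 RPKM on glutamate, against 22.5, 25.3 and 24.1 RPKM on ammonium nitrate. It fell by 0.20 ± 0.06 on the log2 scale (adjusted p = 0.011), and that call was lost when libraries were scaled to equal totals (adjusted p = 0.16).

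The next enzyme, glutamate-1-semialdehyde aminotransferase, is encoded by a pair of genes that differed. GSA2 (AT3G48730) had 37.5, 28.3 and 33.8 RPKM on glutamate and 60.4, 58.6 and 54.1 RPKM on ammonium nitrate, with a log2 fold change of -0.79 ± 0.10 (adjusted p = 0.00013). GSA1 (AT5G63570) had 65.0, 54.6 and 61.1 RPKM on glutamate and 66.4, 65.3 and 65.9 RPKM on ammonium nitrate, without overlap. Its log2 fold change of -0.13 did not pass (adjusted p = 0.10), with a 95% interval of -0.28 to 0.02. Without glutamate replicate 1 it passed as lower (adjusted p = 0.031).

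The enzymes that assemble the ring from aminolevulinate were all lower. HEMC (AT5G08280), hydroxymethylbilane synthase, which links the pyrrole units into a chain, averaged 63.6 ± 2.92 RPKM on glutamate and 116 ± 3.61 RPKM on ammonium nitrate, the largest fall of this stretch (log2 fold change -0.86 ± 0.05, adjusted p = 2.3e-06). HEMB1 (AT1G69740), aminolevulinate dehydratase, averaged 46.4 ± 4.62 RPKM on glutamate and 71.9 ± 2.97 RPKM on ammonium nitrate. HEMD (AT2G26540), uroporphyrinogen III synthase, which closes the ring, was the least abundant of the 11 genes, at 11.3 ± 0.503 RPKM on glutamate and 18.3 ± 0.740 RPKM on ammonium nitrate.

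The decarboxylase genes HEME1 (AT3G14930) and HEME2 (AT2G40490) moved together. HEME1 averaged 45.2 ± 3.20 RPKM on glutamate and 72.8 ± 3.11 RPKM on ammonium nitrate. For HEME2 the means were 61.6 ± 4.24 RPKM on glutamate and 97.3 ± 2.66 RPKM on ammonium nitrate. Among the genes from aminolevulinate to protoporphyrin, those of the oxidases that finish it fell least. HEMF1 (AT1G03475), coproporphyrinogen oxidase, was 1.38-fold lower on glutamate, and PPOX1 (AT4G01690), protoporphyrinogen oxidase, was 1.23-fold lower, at 44.9 ± 1.90 RPKM on glutamate against 55.3 ± 1.38 RPKM on ammonium nitrate. Of the 11 genes to protoporphyrin, 10 thus fell and none rose, GSA1 being the exception. Their median log2 fold change was -0.64.

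At the branch point, the subunits of magnesium chelatase and its activator fell together. CHLH (AT5G13630, also GUN5), the large porphyrin-binding subunit, had 23.3, 20.1 and 21.5 RPKM on glutamate, against 45.2, 44.6 and 43.2 RPKM on ammonium nitrate, a log2 fold change of -1.004 ± 0.06 (adjusted p = 2.4e-06). GUN4 (AT3G59400), which binds porphyrin and stimulates the chelatase, had 16.9, 14.0 and 15.4 RPKM on glutamate and 33.1, 31.7 and 37.9 RPKM on ammonium nitrate, 2.22-fold lower on glutamate. In the TAIR10.1 annotation GUN4 shares 946 bases with AT3G59410 on the other strand, and the use of strand in counting is not stated, so reads of both may mix. The ATPase subunit CHLI1 (AT4G18480) averaged 82.4 ± 10.5 RPKM on glutamate and 146 ± 2.56 RPKM on ammonium nitrate. Its copy CHLI2 (AT5G45930) was lower in level and averaged 13.8 ± 1.72 RPKM on glutamate and 28.8 ± 0.818 RPKM on ammonium nitrate. CHLD (AT1G08520), the other ATPase-type subunit, fell least of the 5, by 0.63 ± 0.06 on the log2 scale.

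CHLM (AT4G25080), the methyltransferase that follows the chelatase, had 98.5, 86.1 and 99.5 RPKM on glutamate and 211, 219 and 213 RPKM on ammonium nitrate (log2 fold change -1.17 ± 0.06, adjusted p = 1.4e-06). Each glutamate library had less than any ammonium nitrate library by a wide margin. DVR (AT5G18660), the vinyl reductase, had the largest fall of all 34 tested genes, with 16.9, 12.6 and 15.4 RPKM on glutamate against 36.1, 35.4 and 33.9 RPKM on ammonium nitrate (log2 fold change -1.19 ± 0.10, adjusted p = 1.2e-05). CHLG (AT3G51820), chlorophyll synthase, which attaches the phytol tail, was 1.77-fold lower on glutamate. CHLP (AT1G74470), geranylgeranyl reductase, which makes the phytyl group for chlorophyll and tocopherol, had 188, 179 and 193 RPKM on glutamate and 390, 406 and 410 RPKM on ammonium nitrate (log2 fold change -1.10 ± 0.05, adjusted p = 6.8e-07). This was the smallest p among the genes of the synthesis steps.

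Within the same branch, 3 genes rose. CHL27 (AT3G56940, also CRD1) encodes a subunit of the cyclase that forms the extra ring of protochlorophyllide. It had 179, 161 and 160 RPKM on glutamate, against 132, 139 and 127 RPKM on ammonium nitrate, or 1.25-fold higher (log2 fold change 0.32 ± 0.06, adjusted p = 0.0017). A noncoding RNA gene on the other strand shares 259 bases with it in TAIR10.1. PORB (AT4G27440), a light-dependent protochlorophyllide oxidoreductase, had 149, 137 and 140 RPKM on glutamate and 98.6, 98.2 and 105 RPKM on ammonium nitrate (log2 fold change 0.49 ± 0.05, adjusted p = 4.9e-05). CAO (AT1G44446), chlorophyllide a oxygenase, which makes chlorophyll b, had 9.82, 8.46 and 8.65 RPKM on glutamate, against 6.17, 6.36 and 5.64 RPKM on ammonium nitrate, or 1.48-fold higher (log2 fold change 0.50 ± 0.08, adjusted p = 0.00046). In each of these genes the lowest glutamate library was above the highest ammonium nitrate library.

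The other protochlorophyllide oxidoreductases did not rise. PORC (AT1G03630), the form of light-grown leaves, had 55.9, 42.3 and 53.0 RPKM on glutamate and 54.0, 56.7 and 52.1 RPKM on ammonium nitrate. Those groups overlapped, and the log2 fold change of -0.11 did not pass (adjusted p = 0.32, 95% interval -0.34 to 0.11); without glutamate replicate 2 it was 0.0059. PORA (AT5G54190), the form of dark-grown seedlings, was close to the limit of counting, with 0, 5 and 6 reads on glutamate and 2, 0 and 3 reads on ammonium nitrate, and was not tested.

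**Figure D2:**
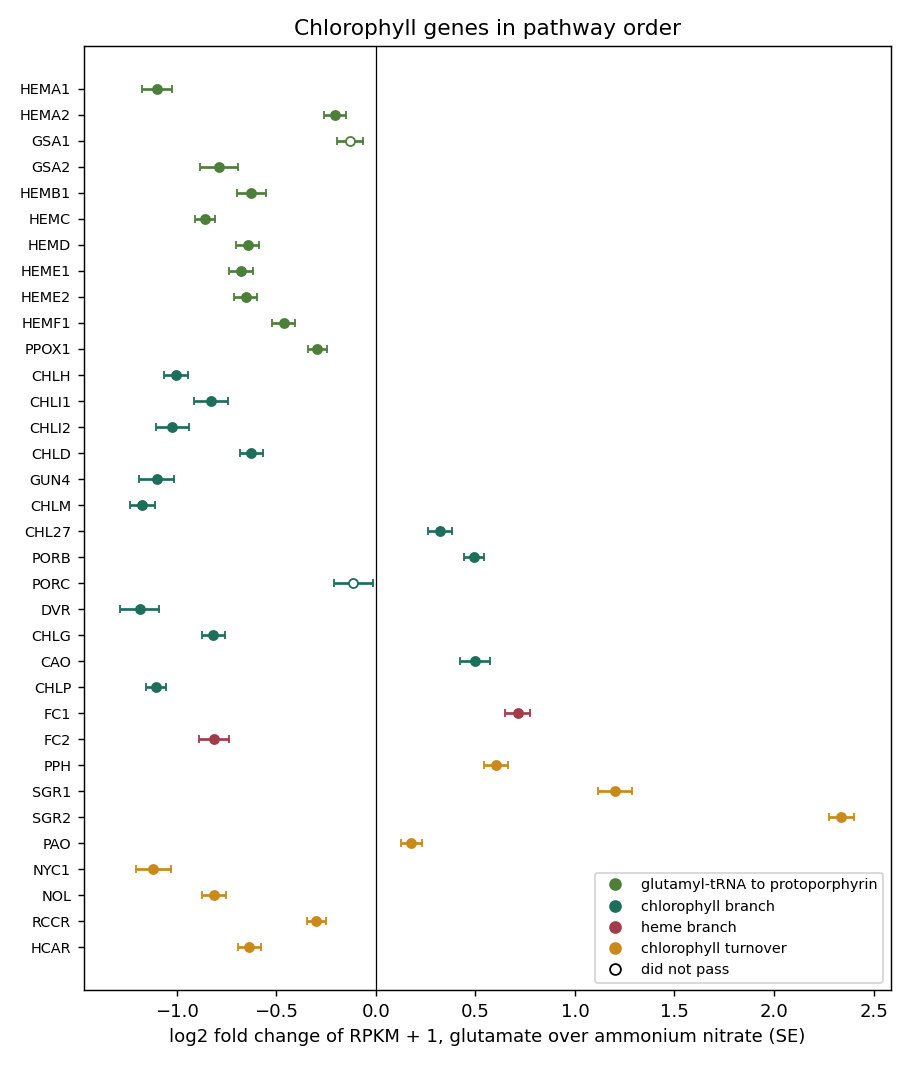
Log2 fold change of RPKM + 1, glutamate over ammonium nitrate, with its SE, for the 34 tested genes in pathway order from top to bottom. Filled points passed and open points, GSA1 and PORC, did not; the synthesis genes lie left of 0 except CHL27, PORB and CAO, and SGR2 lies farthest right at 2.34.

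The heme branch changed its composition more than its total. FC1 (AT5G26030), a ferrochelatase found in all organs and induced by stress, had 43.9, 37.6 and 39.7 RPKM on glutamate and 24.6, 24.7 and 23.4 RPKM on ammonium nitrate (log2 fold change 0.71 ± 0.06, adjusted p = 1.9e-05). FC2 (AT2G30390), the ferrochelatase of photosynthetic tissue, had 23.7, 20.1 and 23.8 RPKM on glutamate and 38.7, 42.8 and 39.1 RPKM on ammonium nitrate (log2 fold change -0.81 ± 0.08, adjusted p = 2.5e-05). The summed level of both was 62.9 ± 4.96 RPKM on glutamate and 64.4 ± 2.72 RPKM on ammonium nitrate. The deposited largest share of multiply mapped reads was 0.170 for FC1 and 0 for FC2, and an annotated microRNA gene of 126 bases lies inside FC1 on the same strand, so the level of FC1 is less certain.

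Among the 8 turnover genes, SGR2, SGR1, PPH and PAO rose, and NYC1, NOL, HCAR and RCCR fell. SGR2 (AT4G11910) and SGR1 (AT4G22920, also NYE1) belong to the STAY-GREEN family. SGR1 is the magnesium dechelatase that turns chlorophyll a into pheophytin. SGR2 had 15.3, 16.2 and 16.8 RPKM on glutamate, against 2.37, 2.47 and 2.32 RPKM on ammonium nitrate (log2 fold change 2.34 ± 0.06, adjusted p = 5.5e-08). SGR1 had 24.2, 25.2 and 29.5 RPKM on glutamate, against 11.8, 10.6 and 10.13 RPKM on ammonium nitrate, or 2.43-fold higher (log2 fold change 1.20 ± 0.09, adjusted p = 5.7e-06).

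PPH (AT5G13800), pheophytinase, which removes phytol, had 47.1, 49.2 and 44.9 RPKM on glutamate and 28.3, 31.1 and 32.5 RPKM on ammonium nitrate (log2 fold change 0.60 ± 0.06, adjusted p = 4.8e-05). PAO (AT3G44880), the oxygenase that opens the ring, had 30.5, 30.2 and 31.2 RPKM on glutamate and 26.1, 28.7 and 26.1 RPKM on ammonium nitrate. Its rise was small, 1.13-fold (adjusted p = 0.016), and did not pass without glutamate replicate 3 (adjusted p = 0.0571), ammonium nitrate replicate 1 (adjusted p = 0.0501) or ammonium nitrate replicate 3 (adjusted p = 0.0545). RCCR (AT4G37000), the reductase that follows PAO, was in contrast lower, at 22.3 ± 0.519 RPKM on glutamate and 27.7 ± 0.834 RPKM on ammonium nitrate (log2 fold change -0.30 ± 0.05, adjusted p = 0.00057).

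The genes that return chlorophyll b to chlorophyll a were all lower, opposite to CAO, which makes chlorophyll b. NYC1 (AT4G13250), a chlorophyll b reductase, had 39.7, 43.0 and 50.4 RPKM on glutamate and 91.2, 102 and 98.1 RPKM on ammonium nitrate (log2 fold change -1.12 ± 0.09, adjusted p = 9.2e-06). NOL (AT5G04900), its partner reductase, had 9.62, 10.2 and 10.5 RPKM on glutamate and 18.5, 19.5 and 17.6 RPKM on ammonium nitrate. HCAR (AT1G04620), which reduces the hydroxymethyl intermediate to chlorophyll a, averaged 19.6 ± 1.38 RPKM on glutamate and 31.0 ± 0.812 RPKM on ammonium nitrate (log2 fold change -0.63 ± 0.06, adjusted p = 2.6e-05).

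Sequences upstream of the genes that rose are shown for the 3 synthesis genes that moved against the rest and for SGR2, the gene with the largest rise. The 250 bases before the annotated gene start were read from RefSeq's TAIR10.1 assembly for all 35 genes and searched on both strands for CACGTG, the G-box bound by HY5 and phytochrome-interacting factors, for CCAATC, a motif linked to targets of GOLDEN2-LIKE factors, and for AAATATCT, the evening element of the clock; no printed match overlaps another. CACGTG was in 6 of the 35 upstream regions (17.1%), where 6.49% of 27443 protein-coding genes had it. Those were HEMD, CHL27, CAO, FC2, SGR2 and NOL, of which CHL27, CAO and SGR2 rose and the other 3 fell. That is 3 of the 8 genes that rose (37.5%) and 3 of the 24 that fell (12.5%), a difference that was not tested. CCAATC was in 3 of 35 (8.57%, against 10.2% of all), with 2 copies in PORB, and AAATATCT in 3 of 35 (8.57%, against 4.79%). Regions are given 5′ to 3′ with the motifs in capitals, for CHL27 (chr3:21076255-21076504 on the plus strand), CAO (chr1:16851272-16851521 on the minus strand), PORB (chr4:13725296-13725545 on the plus strand) and SGR2 (chr4:7155900-7156149 on the plus strand).
CHL27: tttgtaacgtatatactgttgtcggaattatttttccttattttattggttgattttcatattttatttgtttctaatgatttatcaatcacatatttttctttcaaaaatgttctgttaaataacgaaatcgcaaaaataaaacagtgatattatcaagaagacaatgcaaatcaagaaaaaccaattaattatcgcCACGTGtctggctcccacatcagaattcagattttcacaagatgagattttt
CAO: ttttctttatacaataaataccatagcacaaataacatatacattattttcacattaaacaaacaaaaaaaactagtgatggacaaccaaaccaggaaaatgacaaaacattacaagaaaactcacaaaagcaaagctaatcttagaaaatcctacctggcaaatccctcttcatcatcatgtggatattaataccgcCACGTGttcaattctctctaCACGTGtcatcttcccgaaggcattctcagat
PORB: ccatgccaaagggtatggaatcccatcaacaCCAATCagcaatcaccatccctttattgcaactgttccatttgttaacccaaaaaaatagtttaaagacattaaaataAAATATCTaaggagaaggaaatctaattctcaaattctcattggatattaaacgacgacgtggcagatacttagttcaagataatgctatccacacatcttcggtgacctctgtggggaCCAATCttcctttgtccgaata
SGR2: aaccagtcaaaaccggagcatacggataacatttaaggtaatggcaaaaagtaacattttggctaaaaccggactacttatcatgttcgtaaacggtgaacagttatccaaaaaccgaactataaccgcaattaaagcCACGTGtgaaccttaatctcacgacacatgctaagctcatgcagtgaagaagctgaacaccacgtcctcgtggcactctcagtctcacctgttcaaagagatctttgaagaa
CAO held CACGTG at 2 places and CHL27 and SGR2 at 1 place each, while PORB held none. The other genes that rose, FC1, SGR1, PPH and PAO, held none of the motifs searched. A match describes these letters in this window and is no evidence of binding.

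Where a step has a pair of genes, their ratio within a library does not depend on the scaling between libraries, and 8 such pairs were compared. With 3 libraries against 3, the exact permutation test cannot give a two-sided p below 0.1. In 7 of the 8 pairs the groups did not overlap. Levels of single genes did not overlap for 76.1% of all tested genes, but no such share was worked out for ratios of other gene pairs. FC1 took 64.2% ± 1.42 of the summed ferrochelatase level on glutamate and 37.6% ± 1.16 on ammonium nitrate (exact permutation p = 0.1, adjusted over the pairs 0.114), so the more abundant gene was a different one in each group. HEMA1 took 57.4% ± 3.11 of the reductase level on glutamate and 71.8% ± 0.915 on ammonium nitrate. SGR1 took 62.0% ± 1.53 of its pair with SGR2 on glutamate and 82.0% ± 1.16 on ammonium nitrate. That pair leaves out the homolog SGRL, at 20.6 RPKM on glutamate and 37.4 RPKM on ammonium nitrate. These shares are therefore not of the whole STAY-GREEN family. PORB took 73.9% ± 2.20 of its pair with PORC on glutamate and 64.9% ± 1.72 on ammonium nitrate, and GSA1 took 64.6% ± 1.24 of its pair with GSA2 on glutamate and 53.3% ± 1.39 on ammonium nitrate. CHLI1 and NYC1 shifted by less, CHLI1 to 85.7% ± 0.135 on glutamate against 83.6% ± 0.608 on ammonium nitrate, and NYC1 to 81.4% ± 1.25 on glutamate against 84.0% ± 0.823 on ammonium nitrate. For HEME1, at 42.3% ± 0.232 on glutamate and 42.8% ± 0.388 on ammonium nitrate, the groups overlapped (exact permutation p = 0.2).

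**Figure D3:**
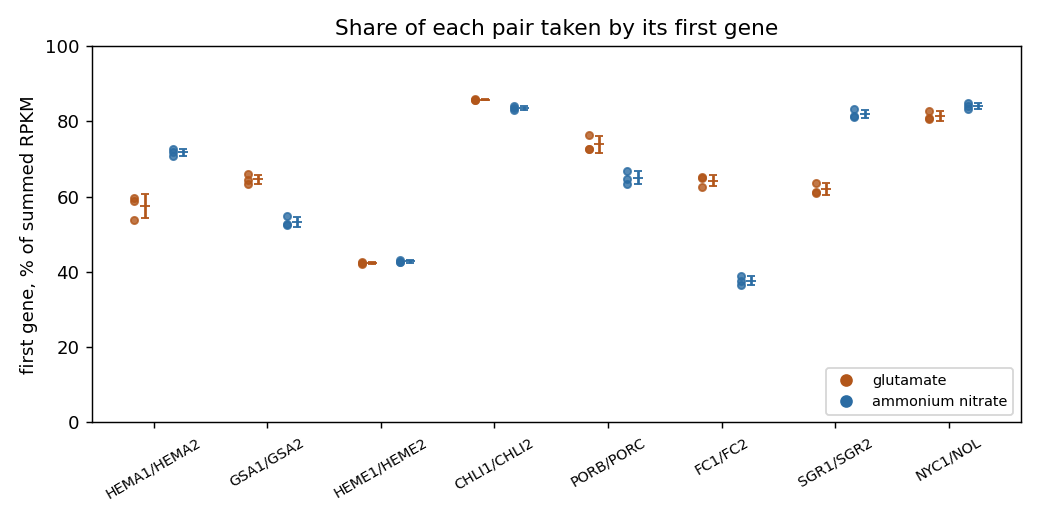
Share of the summed RPKM of 8 gene pairs taken by the first gene of each pair, in the 3 glutamate libraries (brown, left) and the 3 ammonium nitrate libraries (blue, right), with mean and SD beside the points. FC1 holds 64.2% on glutamate and 37.6% on ammonium nitrate, whereas HEME1 holds about the same share in both.

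Related genes outside the 35 were counted from lists written from pathway knowledge. Of 12 other genes of tetrapyrrole synthesis, 10 were tested and all 10 fell, with a median log2 fold change of -0.78. Of all tested genes 36.8% fell. UPM1 (AT5G40850), a methyltransferase that diverts uroporphyrinogen to siroheme, the cofactor of nitrite and sulfite reductases, averaged 21.04 ± 1.48 RPKM on glutamate and 179 ± 14.6 RPKM on ammonium nitrate. At 8.50-fold lower it fell more than any of the 35 genes (log2 fold change -3.03 ± 0.07, adjusted p = 4.1e-08). FLU (AT3G14110), which restrains aminolevulinate synthesis in the dark, averaged 66.1 ± 2.69 RPKM on glutamate and 120 ± 4.51 RPKM on ammonium nitrate. The light-harvesting-like genes LIL3:1 (AT4G17600) and LIL3:2 (AT5G47110), which anchor CHLP, were 2.14-fold and 2.01-fold lower on glutamate, close to the 2.15-fold of CHLP itself.

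Among 4 tested genes of heme oxidation and bilin synthesis, 1 rose, 2 fell and 1 did not pass. The 75% that passed was near the 71.8% of all tested genes. HO3 (AT1G69720), a minor heme oxygenase gene, had 12.98, 11.6 and 12.7 RPKM on glutamate, against 0.694, 0.986 and 0.868 RPKM on ammonium nitrate (log2 fold change 2.86 ± 0.09, adjusted p = 9.3e-08). HO1 (AT2G26670), the main heme oxygenase, was at 91.4 ± 2.42 RPKM on glutamate and 94.6 ± 10.9 RPKM on ammonium nitrate and did not pass (adjusted p = 0.65). HY2 (AT3G09150), which makes the phytochrome chromophore, was 2.22-fold lower on glutamate, and HO2 (AT2G26550) 1.38-fold lower.

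Of 9 other turnover genes, 3 rose, 5 fell and 1 did not pass. Thus 33.3% were higher and 55.6% lower, where 35% of all tested genes were higher and 36.8% lower. PES2 (AT3G26840), a phytyl ester synthase that stores phytol from degraded chlorophyll, averaged 26.5 ± 1.36 RPKM on glutamate and 4.07 ± 0.625 RPKM on ammonium nitrate (log2 fold change 2.45 ± 0.09, adjusted p = 2.8e-07). SGRL (AT1G44000), the third STAY-GREEN homolog, was 1.82-fold lower on glutamate, unlike SGR1 and SGR2. TIC55 (AT2G24820) and MES16 (AT4G16690), which modify the linear breakdown products, were 1.82-fold and 2.50-fold lower on glutamate.

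The regulators of synthesis were a mixed list of activators and repressors. Of 13 regulators of chlorophyll synthesis 10 fell, 1 rose and 2 did not pass. Their median log2 fold change was -0.50. Of this list 76.9% were lower and 7.69% higher, where 36.8% of all tested genes were lower and 35% higher. GLK2 (AT5G44190), a GOLDEN2-LIKE activator of chloroplast genes, averaged 11.9 ± 0.317 RPKM on glutamate and 26.4 ± 1.496 RPKM on ammonium nitrate. The GATA factors GNC (AT5G56860) and CGA1 (AT4G26150), which promote greening and respond to nitrate, were 4.12-fold and 3.82-fold lower on glutamate. PIF1 (AT2G20180), a phytochrome-interacting factor that represses chlorophyll synthesis in the dark, was 2.10-fold lower, and PIF4 (AT2G43010), named after its values were seen, was the one that rose, 2.05-fold. Of 7 regulators of chlorophyll breakdown, a list not sorted into activators and repressors, 5 rose, none fell and 2 did not pass. Thus 71.4% passed, all of them higher, where 71.8% of all tested genes passed and 35% were higher. NAP (AT1G69490), a NAC factor of leaf senescence, averaged 63.7 ± 7.89 RPKM on glutamate and 5.25 ± 1.12 RPKM on ammonium nitrate, ORE1 (AT5G39610) was 2.21-fold higher on glutamate, ANAC046 (AT3G04060) 2.65-fold and NAC016 (AT1G34180) 2.80-fold. SOC1 (AT2G45660), named after its values were seen, rose least of the 5, 1.29-fold.

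**Figure D4:**
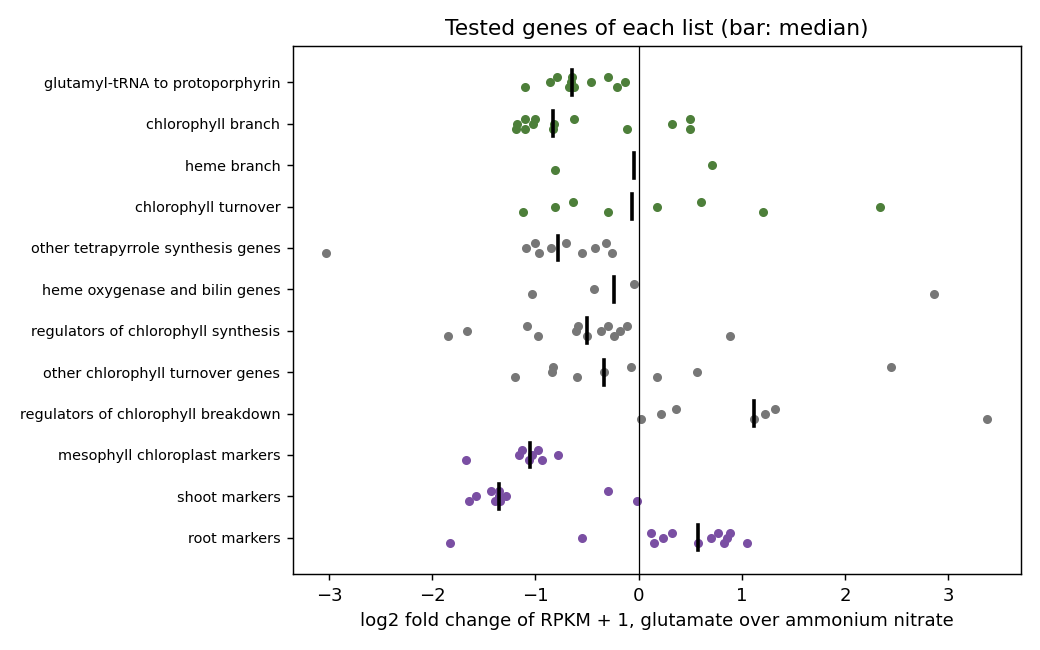
Log2 fold change of RPKM + 1, glutamate over ammonium nitrate, of each tested gene (points) by list, with the list's median as a bar; the 4 lists of chlorophyll genes are green, related genes gray and markers purple. Medians are -0.64 and -0.83 for the synthesis lists, -1.05 for mesophyll markers, -1.35 for shoot markers and 0.58 for root markers.

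Markers of the organs moved with these changes. Of all tested genes 71.8% passed, 36.8% lower and 35% higher. The share that passed was 80% for shoot and 100% for mesophyll markers, all lower, and 76.9% for root markers. Of 10 shoot markers, genes of leaf polarity, the cuticle and the stomatal lineage that are not chloroplast genes, 8 fell, none rose and 2 did not pass. The median of the list was -1.35 on the log2 scale. Their summed level was 106 to 116 RPKM on glutamate and 302 to 312 RPKM on ammonium nitrate. CER6 (AT1G68530), of cuticular wax synthesis, was 2.71-fold lower on glutamate, FIL (AT2G45190), a leaf polarity factor, 2.82-fold, and the stomatal factors SPCH (AT5G53210) and FAMA (AT3G24140) 4.23-fold and 2.76-fold. All 8 mesophyll markers fell, with a median of -1.05 and a summed level of 10937 to 12384 RPKM on glutamate and 22619 to 23907 RPKM on ammonium nitrate. PSAD1 (AT4G02770), of photosystem I, was 2.18-fold lower on glutamate, PETC (AT4G03280), of the cytochrome complex, 2.23-fold, GAPB (AT1G42970), of the Calvin cycle, 2.09-fold and PSBO1 (AT5G66570), of photosystem II, 1.96-fold. Of the 14 root markers, 13 were tested, of which 8 (61.5%) rose, 2 (15.4%) fell and 3 did not pass. Their median was 0.58. CASP4 (AT5G06200) and MYB36 (AT5G57620), of the endodermal barrier, were 2.17-fold and 1.98-fold higher on glutamate, COBL9 (AT5G49270), of root hairs, 2.25-fold higher, and SKOR (AT3G02850), a stelar potassium channel gene, lower, at 0.256 RPKM on glutamate and 3.47 RPKM on ammonium nitrate. Their summed level, mostly that of PYK10 (AT3G09260), a glucosidase gene named after its values were seen, was 1659 to 1807 RPKM on glutamate and 2216 to 2696 RPKM on ammonium nitrate, opposite to the median. No marker of the 3 lists was at 0. In RNA from whole seedlings, fewer shoot cells and less RNA per cell cannot be told apart, and the part of the organs in the falls above was not tested.

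Set against the mesophyll or shoot markers within each library, a comparison chosen after the values were seen, most tested genes were higher on glutamate. Dividing by lists that themselves fell raises every gene that fell less, so these counts show no rise of the chlorophyll genes. Relative to either list, a smaller share of chlorophyll genes than of all tested genes was higher. Relative to the mean log2 level of the mesophyll markers, 26 of the 34 tested genes were higher on glutamate without overlap, 1 was lower and 7 overlapped; 89.2% of all tested genes were higher on this scale and 3.24% lower. CHLM was the one lower, by a log2 difference of -0.09, and HEMA1 (-0.03), CHLH (0.06), CHLI2 (0.02), GUN4 (-0.06), DVR (-0.15), CHLP (-0.01) and NYC1 (-0.04) overlapped. HEMC was 0.23 higher, PPOX1 0.80, PORB 1.59, CAO 1.66 and SGR2 3.85 on this log2 scale. Relative to the shoot markers 30 genes were higher without overlap, none was lower and GUN4, CHLM, DVR and NYC1 overlapped; 93.7% of all tested genes were higher on that scale and 1.71% lower.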

How the data were processed

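RNA-seq libraries of whole seedlings were made with the Illumina TruSeq RNA kit, per the labels' protocols, 3 on glutamate and 3 on ammonium nitrate. The deposited table holds RPKM values per gene, which the authors scaled by TMM, per the file's name; it also holds gene length and, per the file headers, a fraction named as the maximum proportion of multiply mapped reads. Per the submitters' processing notes, TAIR10 and SAMtools were used. The sources used here do not state the aligner, the counter or whether strand was used. RPKM times length stepped in whole reads with 0.5 read added, within 0.05 read for 95.9% to 96.4% of genes, which gave the read totals; these may count mates separately, and a limit of 3 reads per library covers counting error only.

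The labels gave groups and replicate numbers. On log2(RPKM + 1), genes whose mean reached 1 RPKM were tested two-sided by limma (version 3.58.1, R 4.3.3), its variance following a trend with intensity; this scale understates changes of low genes. The test was tried on 10 simulated data sets with 200 genes changed in each. In these data 71.8% of tested genes passed, so the simulations differ from them and do not give the error rate here. Between replicates the chi-square divided by its degrees of freedom was 11.1 to 16.8, so no library was a copy of another. Of the 35 genes, 4 had multiply mapped reads and 16 overlap another gene in TAIR10.1, 12 on the other strand, HEMC, GUN4, CHL27 and CHLP by over 200 bases. Members and lists were chosen with earlier results of these data known. Named were all 35 genes and, of each other list, up to 4 with the smallest p. Outside this rule PIF4, SOC1 and PYK10 were named after their values were seen. HEMB2 and HO4 were named for their few reads, and the Rubisco small subunit as an example of a marker. Alternatives covered pseudocount, filter, scaling, multiply mapped genes, variance trend, pairing and each left-out library. Names came from the files' locus codes and a TAIR10.1 gene table; upstream sequences are RefSeq's, on TAIR10.1.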

Additional observations from a re-analysis of the deposited data

How the results depend on the processing

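Of the 472 recomputed log2 fold changes of chlorophyll genes, 466 kept their direction and their side of the threshold under the alternatives tried. The exceptions were HEMA2 with equal totals, GSA1 without glutamate replicate 1 and PAO without 3 of the libraries in turn, given above, and PORC, which ranged from -0.19 to 0.0059 over the left-out libraries. Equal totals per library moved the median of all tested genes by 0.0995; 58.5% of calls were then higher, against 48.7% as reported, with 8452 higher and 5989 lower; of the chlorophyll genes 8 were then higher and 23 lower. Median log2 fold changes with equal totals were -0.53 for all 35 genes, -0.56 for all synthesis genes, -0.54 to protoporphyrin, -0.72 in the chlorophyll branch, -0.67 in other synthesis genes, -0.39 in synthesis regulators and -1.25 in shoot markers, and turned to 0.047 in turnover and 0.059 in the heme branch. With a pseudocount of 5 RPKM they were -0.58 for all 35 genes, -0.14 in other turnover genes, 0.72 and -0.33 in breakdown and synthesis regulators and -0.91 in shoot markers; with 0.1 RPKM shoot markers had -1.48. Without multiply mapped genes, which leaves out HEMB1, CHLM, FC1 and NOL, 0 heme genes were higher, the heme median was -0.81 and the turnover median turned to 0.18. With no filter other synthesis genes had -0.63 and heme oxidation genes -0.042. Root markers lower were 1 with no filter and 1 at a mean of at least 5 RPKM. The heme median was -0.10 to 0.014 over the left-out libraries. HO1, which did not pass, turned to 0.069 with equal totals and lay between -0.13 and 0.038 over the left-out libraries. Causes were not tested beyond the genes left out.

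The labels number replicates alike in both groups, but deviations of same-numbered libraries correlated at 0.10, 0.05 and -0.01, and glutamate replicate 3 correlated best with ammonium nitrate replicate 2, so the numbers were not taken as pairs. With the replicate number as a block 6929 genes were higher and 7265 lower, with 8 and 24 of the chlorophyll genes. Of the 35 genes depth limits only PORA, at 0 to 6 reads, and of the related genes HEMB2 and HO4, each with 2 reads in 1 ammonium nitrate library and not tested; 3 libraries per group limit the exact tests.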
